A study of Mus musculus with 4 samples.

Results

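The miR-23/27/24 genes form a pair of short clusters, with Mir23a, Mir27a and Mir24-2 on mouse chromosome 8 and Mir23b, Mir27b and Mir24-1 on chromosome 13. Their levels were read from a small RNA table of stroma cells that surround the wolffian duct, an epithelial tube that gives rise to the ureteric bud. The members were the rows whose gene ID maps to these clusters, and all 6 were found among 643 miRNA genes and 2976 rows in all. Every library came from flow-sorted cells of wild-type CD1 embryos at E10.5 that carried Tbx18-Cre and the CAG-tdTomato reporter. Cre driven by the Tbx18 promoter switches on the red reporter permanently, so the sorted cells include descendants of cells that once expressed Tbx18. There were 4 libraries in 1 group and no untreated or mutant group to compare with. Nothing in the labels says whether they came from separate embryos or pools, so spreads and p-values cover variation among these libraries alone, and that variation may be technical.

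Each cluster is a small polycistron, in which neighbouring hairpins are cut from a longer primary transcript and then trimmed to mature miRNAs. A mature miRNA finds its target mRNAs mainly through its seed, bases 2 to 8 from the 5′ end, and the 3p miRNAs of the paired clusters are known to carry the same seeds. The clusters are known from endothelial cells and vessel growth. The chromosome 13 cluster is also known to restrain TGF-beta signalling through Smad mRNAs, miR-27 to restrain adipocyte formation, and miR-24 to act on cell cycle genes.

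The mature sequences are shown because they decide which copies a short read can separate. They are from RefSeq (GRCm38.p6), 5′ to 3′, with the seed in capitals. The arms used here from the 3′ side of the hairpins, miR-23b-3p not among them, were these.
miR-23a-3p: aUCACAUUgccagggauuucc
miR-27a-3p: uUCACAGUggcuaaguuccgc
miR-27b-3p: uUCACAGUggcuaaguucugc
miR-24-3p: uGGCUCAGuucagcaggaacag
Over their 21 bases miR-27a-3p and miR-27b-3p differed at 1 position, C19U, counted from 1 at the 5′ end with the miR-27a base first. A read that ends before that base fits both genes. The miR-24-3p sequence was recorded identically for Mir24-1 and Mir24-2, so no read of that arm alone can be placed at 1 of the clusters.

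For the Mir23 pair the whole hairpins are given, with the longest run of bases present in both of them in capitals.
Mir23a: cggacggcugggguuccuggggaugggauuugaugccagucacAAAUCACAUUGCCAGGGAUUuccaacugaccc
Mir23b: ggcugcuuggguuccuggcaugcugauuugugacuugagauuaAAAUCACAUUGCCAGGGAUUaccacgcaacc
That run was 20 bases long and holds the miR-23 seed. Where miR-23a-3p was laid without gaps on the Mir23b hairpin, 1 of its 21 bases differed (U19A, the miR-23a base first). The longest shared run was also 20 bases in the Mir27 hairpins and 28 bases in the Mir24 hairpins. Over the whole aligned hairpins, with gaps counted, identity was 73.8% for Mir23a and Mir23b, 61.1% for Mir27a and Mir27b, and 54.5% for Mir24-2 and Mir24-1. Identical bases numbered 59 of 80 aligned positions, 58 of 95 and 60 of 110. Unequal hairpin lengths lower the percentage, most for Mir24-2 and Mir24-1 at 107 and 68 nt, so it does not order the pairs by divergence. The paralogs are thus near-identical in the stretch that becomes the 3p miRNA and differ more outside it, in bases or in annotated length.

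The 5p arms differ more between the copies and are shown for the miR-24 genes, whose 3p arms do not.
miR-24-2-5p: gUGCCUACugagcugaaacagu
miR-24-1-5p: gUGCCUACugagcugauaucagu
Both carry the same seed, unlike the 5p arms of the Mir23 and Mir27 pairs, and differ further along, so a full-length read of this arm can be placed at 1 of the clusters.

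All 6 genes lie on the plus strand of GRCm38. On chromosome 8, Mir23a (gene ID 387216) runs from 84208518 to 84208592, Mir27a (387220) from 84208672 to 84208758 and Mir24-2 (723960) from 84208815 to 84208921, so the cluster spans 404 bases. In GENCODE vM21 Mir23a and Mir27a overlapped no other annotated gene, and Mir24-2 overlapped the lincRNA Gm26532 by its last 2 bases. On chromosome 13, Mir23b (387217) runs from 63300484 to 63300557, Mir27b (387221) from 63300712 to 63300784 and Mir24-1 (387142) from 63301208 to 63301275, a span of 792 bases. That cluster lies inside the protein-coding gene 2010111I01Rik, named Aopep in RefSeq and encoding an aminopeptidase, and antisense to a long transcript of Fancc. Mir23b lay in an intron of 2010111I01Rik and in none of its annotated exons, while Mir27b and Mir24-1 also fell in untranslated exons of its transcripts marked for nonsense-mediated decay. Each Mir24 gene is overlapped on the opposite strand by another row, Mir24-2 by Mir3074-2 (84208825 to 84208907) and Mir24-1 by Mir3074-1 (63301199 to 63301283).

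**Figure D1:**
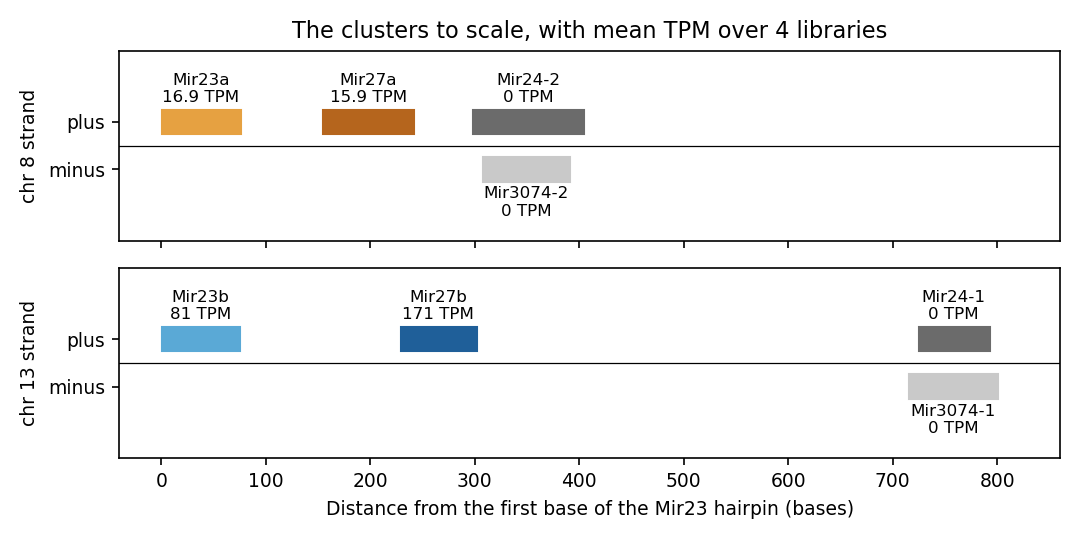
Map of the clusters, with distance in bases from the first base of the Mir23 hairpin on the x axis and strand on the y axis; boxes are hairpin genes drawn to scale, labelled with their mean level over 4 libraries. The chromosome 13 hairpins are spread over 792 bases against 404 on chromosome 8, and the Mir24 genes at the end of each cluster and the Mir3074 genes opposite them are listed at 0.

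Levels are in TPM, reads divided by hairpin length and scaled to a fixed total, of which the rows listed are only a part. A short hairpin thus gets a higher TPM than a long one with the same reads, so the reads are given beside TPM where genes are compared. The reads behind them were recovered from the table. They came to 146255 in library 4 and between 883201 and 1087240 in libraries 1 to 3 over all miRNA genes. Library 4 was therefore the least precise, and miRNA genes made up 70.3% of its summed TPM in this table against 86.0% to 90.7% in the others. Of the 6 genes, 4 were at 1 TPM or more in every library, as were 33.1% of the 643 miRNA genes. At 10 TPM or more in every library Mir27b alone remained, beside 17.6% of miRNA genes. The other 2, Mir24-1 and Mir24-2, were listed at 0 in all 4, as were 31.6% of miRNA genes.

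Mir27b was the highest of the 6. Its levels were 197, 237, 230 and 19.7 TPM in libraries 1 to 4, and the mean was 171 ± 102 TPM (SD, n = 4). Those values rest on 3686, 3562, 3217 and 155 reads. Libraries 1 to 3 lay close together and library 4 was far below them, so that the coefficient of variation was 59.9% over all libraries and 9.58% without library 4. Ordered by mean TPM, Mir27b was 54th of the miRNA genes, and it ranked 51, 46, 48 and 90 within libraries 1 to 4.

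Mir23b, the first hairpin of the same cluster, followed. It stood at 108, 82.8, 123 and 9.65 TPM in libraries 1 to 4, a mean of 81.0 ± 50.4 TPM (SD, n = 4), from 2044, 1259, 1751 and 77 reads. Again library 4 was lowest and did not overlap the others. Its rank by mean was 76, and its rank within a library fell between 66 and 120.

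The chromosome 8 genes were lower. Mir23a stood at 20.5, 17.6, 22.8 and 6.43 TPM in libraries 1 to 4 (16.9 ± 7.27 TPM, SD, n = 4), from 394, 272, 328 and 52 reads. Mir27a stood at 16.0, 26.1, 15.4 and 6.08 TPM (15.9 ± 8.16 TPM, SD, n = 4), from 357, 466, 257 and 57 reads. Mir23a ranked 137th by mean with Mir27a 4 places below, and their values overlapped each other but not those of Mir27b in libraries 1 to 3. Lowest values of all 4 genes again came from library 4.

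**Figure D2:**
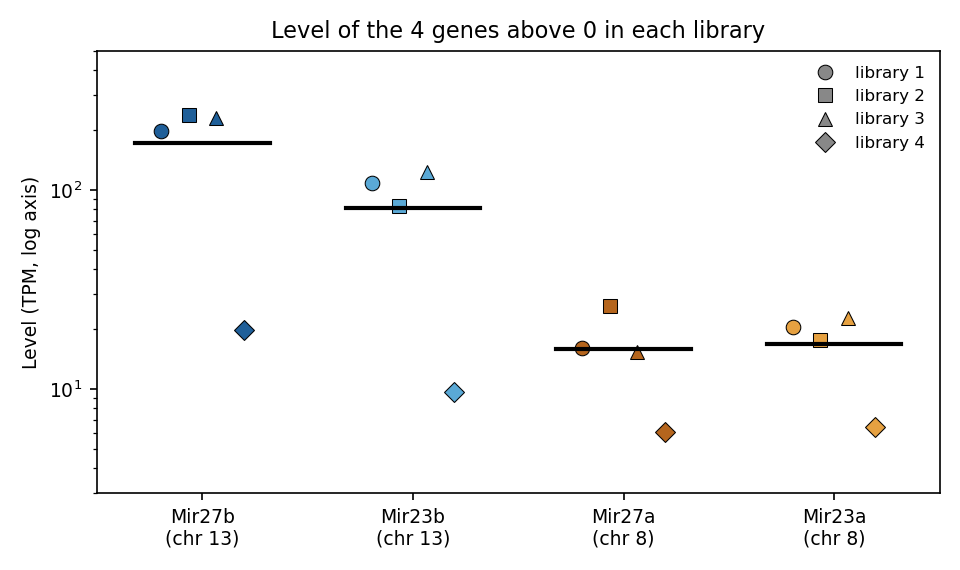
Level in TPM (log axis) of the 4 genes above 0, with 1 symbol per library and a bar at the mean of 4 libraries. In libraries 1 to 3 both chromosome 13 genes lie above both chromosome 8 genes, and in library 4 the levels are close, from 6.08 TPM for Mir27a to 19.7 TPM for Mir27b.

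Because a level in TPM also moves with the rest of the library, levels were set against the miRNA total. As shares of a library's miRNA TPM, Mir27b took 0.465%, 0.363%, 0.373% and 0.120% in libraries 1 to 4, and Mir23b 0.254%, 0.126%, 0.200% and 0.0589%. On this scale Mir23a took 0.0483%, 0.0269%, 0.0370% and 0.0392%, and Mir27a 0.0378%, 0.0398%, 0.0250% and 0.0371%. So library 4 remained lowest for the chromosome 13 genes, while for the chromosome 8 genes it lay inside the range of the others. Together the 6 genes made up 0.734%, 0.511%, 0.568% and 0.233% of all miRNA reads. The coefficient of variation of the share was 19.3% for Mir27a and 23.2% for Mir23a, above only 11.7% and 18.8% of the 213 miRNA genes that reached 1 TPM everywhere. It was 44.6% for Mir27b and 53.4% for Mir23b, above 62.4% and 71.4% of those genes.

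**Figure D3:**
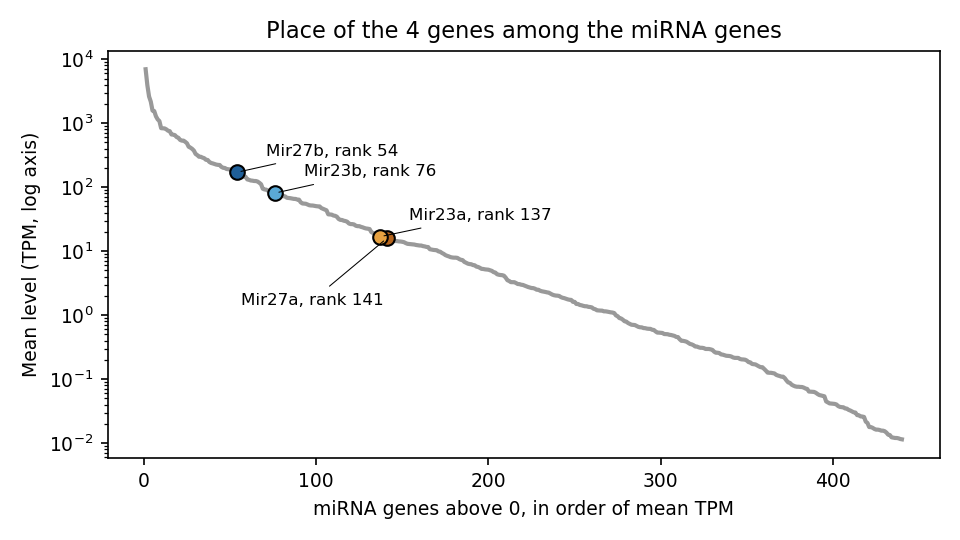
Mean TPM over 4 libraries (log axis) of the miRNA genes above 0, in order of that mean, with the 4 detected genes of the clusters marked. Mir27b and Mir23b sit at ranks 54 and 76, and Mir23a, at 137, lies 4 ranks above Mir27a.

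The chromosome 13 copy was above the chromosome 8 copy for both pairs in 4 of 4 libraries. Mir27b exceeded Mir27a 12.3-, 9.11-, 14.9- and 3.24-fold in TPM in libraries 1 to 4, a mean log2 ratio of 3.01 ± 1.01 with 1 TPM added to each side (SD, n = 4). Mir23b exceeded Mir23a 5.26-, 4.69-, 5.41- and 1.50-fold, a mean log2 ratio of 1.85 ± 0.89 (SD, n = 4). For the summed clusters the mean log2 ratio was 2.55 ± 0.93 (SD, n = 4), with the Mir24 genes at 0 on both sides. Library 4 was the lowest in each of these ratios, and library 2 was the lowest of the other 3. In a two-sided exact permutation test that flips the signs of the libraries, each of these 3 ratios had p = 0.13, the smallest that 4 libraries allow, and an adjusted p of 0.167 over the 8 ratios computed, so none could pass 0.05.

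The same comparison can be made in reads, where counting error is known. Of the reads of the Mir27 pair, 91.2%, 88.4% and 92.6% were listed under Mir27b in libraries 1 to 3, and 73.1% in library 4 (exact 95% interval 66.6 to 79.0%, 155 of 212 reads). For the Mir23 pair, Mir23b held 83.8%, 82.2% and 84.2% in libraries 1 to 3, and 59.7% in library 4 (50.7 to 68.2%, 77 of 129 reads). The lowest bounds in libraries 1 to 3 were 87.4% for Mir27b and 80.2% for Mir23b. Library 4 thus stood apart by more than counting error in both pairs. For the Mir27 pair library 2, at 87.4 to 89.4%, also lay below libraries 1 (90.3 to 92.0%) and 3 (91.7 to 93.5%) by more than counting error, a smaller gap. These are ratios that the scaling of the library cannot move. These intervals cover counting error only. Reads that fit both copies of a pair may have been placed whole at 1 copy or dropped, in a way not given in the sources used here.

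**Figure D4:**
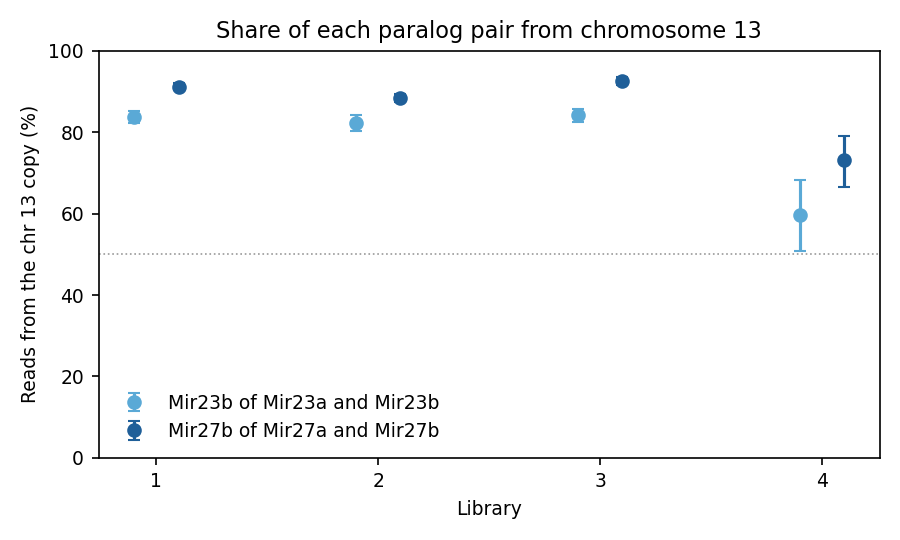
Share of the reads of each paralog pair listed under the chromosome 13 copy (y axis, %) in each library (x axis); bars are exact 95% binomial intervals and the dotted line marks equal shares. Libraries 1 to 3 lie between 82.2% and 92.6%, and library 4 is at 59.7% for Mir23b and 73.1% for Mir27b.

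Within the chromosome 13 cluster Mir27b was above Mir23b in 4 of 4 libraries. The log2 ratio of Mir23b to Mir27b was -0.86, -1.51, -0.89 and -0.96 in libraries 1 to 4, with a mean of -1.06 ± 0.30 (SD, n = 4; exact sign-flip p = 0.13, adjusted p = 0.167). In reads, Mir27b held 64.3%, 73.9%, 64.8% and 66.8% of the 2 genes' total. Library 2 was the high one, with an exact interval of 72.6 to 75.1%, and library 4 did not differ from libraries 1 and 3 by more than its interval of 60.3 to 72.8%. The hairpins are 73 and 74 nt long, so dividing by length hardly moves this ratio.

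Within the chromosome 8 cluster no order held. Mir23a was above Mir27a in 3 of 4 libraries in TPM, with a mean log2 ratio of 0.10 ± 0.47 (SD, n = 4; exact sign-flip p = 0.75, adjusted p = 0.75). The ratio turned to -0.10 in reads not divided by hairpin length, since the Mir27a hairpin is 87 nt long and that of Mir23a 75 nt. Of the reads of the 2 genes, Mir27a held 47.5%, 63.1%, 43.9% and 52.3% in libraries 1 to 4. Library 2, at 63.1% (59.5 to 66.6%), was again the one richest in miR-27, beyond the counting error of libraries 1 and 3. In both clusters the miR-27 hairpin thus took its largest part in library 2.

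Library 4 was compared with the rest over all miRNA genes, a comparison chosen after its values were seen. The share of Mir27b in library 4 was 0.300 times its mean share in libraries 1 to 3, and that of Mir23b 0.304 times. Only 9 and 12 of the 213 miRNA genes at 1 TPM or more everywhere had a lower value than these 2. For Mir23a and Mir27a the values were 1.05 and 1.08, beside a median of 1.02 over the 213 genes. The same comparison was made for the summed shares of the marker lists. The stromal list stood at 0.364 times its mean share in libraries 1 to 3, with Mir199b at 0.292 and Mir199a-1 at 0.376. Endothelial Mir126a stood at 2.10 and the epithelial list at 1.59, with Mir200c at 2.59, Mir200a at 2.05, Mir200b at 1.76, Mir429 at 1.60 and Mir205 at 1.05. The epithelial share in library 4, 0.265%, was close to that in library 3, 0.255%, with 0.174% and 0.0707% in libraries 1 and 2. Smooth muscle genes stood at 0.931, the erythroid list at 0.556 from 2 rows and the white blood cell list at 0.722 from 3 rows. For each of these lists the share in library 4 lay inside the range of libraries 1 to 3. The neural list stood at 0.305, but its share in library 4, 0.598%, lay between those in libraries 1 and 2, at 0.825% and 0.0575%, with 4.99% in library 3. The part that cell makeup or depth has in this was not tested, and fewer cells of a type and less RNA per cell cannot be told apart in bulk libraries.

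**Figure D5:**
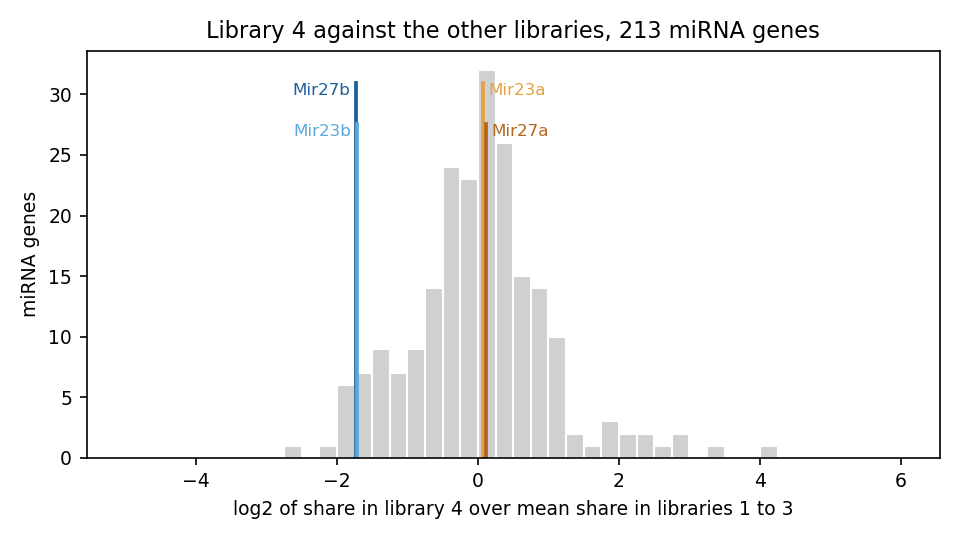
Histogram of 213 miRNA genes by the log2 of their share in library 4 over their mean share in libraries 1 to 3 (x axis), with the 4 detected genes of the clusters as vertical lines. Mir27b and Mir23b lie at -1.74 and -1.72 in the low tail, and Mir23a and Mir27a at 0.07 and 0.12 near the middle.

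Mir24-1 and Mir24-2 close their clusters and were listed at 0 in every library. A count of 0 allows up to 0.173, 0.215, 0.230 and 0.409 TPM for Mir24-1 in libraries 1 to 4, and 0.110, 0.136, 0.146 and 0.260 TPM for Mir24-2, taking 3 reads as the limit. These limits hold only for reads the counting would have assigned. Mir3074-1 and Mir3074-2, which cover the same stretches on the minus strand, were also listed at 0 throughout. The opposite-strand miRNA is shown to make the overlap visible, again with its seed in capitals.
miR-3074-5p: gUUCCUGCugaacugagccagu
Its reverse complement shares 20 bases with miR-24-3p, from base 1 to base 20.

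A listed 0 was common to genes placed in this way. The way reads were assigned where rows overlap or share a sequence is not known here. Of the 14 miRNA genes that overlap another miRNA row, 13 were listed at 0 in all 4 libraries (92.9%), and all 14 overlap it on the other strand. The exception was Mir374b, at 3.07 TPM on average. Overlaps run both ways, so both rows of a site are counted and the 14 are not separate cases. Leaving out the Mir24 and Mir3074 rows themselves, 9 of 10 were at 0. Among the 629 miRNA genes without such an overlap, 190 were listed at 0 (30.2%). Among those without an overlap, 14 of 74 that share a mature sequence with another gene were at 0 (18.9%), and 132 of 468 with mature sequences of their own (28.2%). Among those with an overlap, 5 of 6 with mature sequences of their own were at 0. The 4 that share a mature sequence, all at 0, are the Mir24 and Mir3074 rows themselves and so are no background for them. Genes with no mature sequence in the reference used were left out of these splits, which therefore do not add up to 629 and 14. Whether the 0 of the Mir24 genes comes from the overlap, from the shared sequence or from a low level was not tested. Sums over a cluster cover its miR-23 and miR-27 genes alone.

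By seed, the miR-27 genes summed to 213, 263, 245 and 25.8 TPM in libraries 1 to 4 and the miR-23 genes to 129, 100.4, 146 and 16.1 TPM. Among the mature sequences used here, which do not hold miR-23b-3p, no gene outside the clusters had the seed of miR-23a-3p or miR-27a-3p. The miR-24 seed was shared by Mir6413, Mir6410, Mir6369 and Mir5124b, which were not analysed here.

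Since these clusters are known from vessels and stroma, their sum was set against markers of those cells. The 6 genes summed to 342, 364, 392 and 41.9 TPM in libraries 1 to 4. Mir126a, the endothelial marker, stood at 280, 436, 528 and 251 TPM. The clusters were above it in library 1 and below it in libraries 2 to 4, with a mean log2 ratio of -0.74 ± 1.25 (SD, n = 4; exact sign-flip p = 0.375, adjusted p = 0.429), and -0.13 without library 4. In library 4 the sum was 0.167 times Mir126a, the widest gap of the 4.

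The clusters lay below both other groups in 4 of 4 libraries. Against the stromal miR-199/miR-214 genes, which summed to 1327, 1255, 855 and 128 TPM, the mean log2 ratio was -1.61 ± 0.36 (SD, n = 4). Against smooth muscle Mir143 and Mir145a, at 567, 1118, 589 and 203 TPM together, it was -1.30 ± 0.78 (SD, n = 4). Each had p = 0.13 by the exact sign-flip test and an adjusted p of 0.167. The stromal sum may be understated, since Mir214 and Mir199a-2 were listed at 0. Of the 3 ratios to marker groups, that to the stromal genes varied least between libraries, with library 4 inside the range of the others.

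Markers of further cell types bear on what the sort held. Epithelial miRNAs (the miR-200 genes and Mir205) had 5 of 6 genes at 1 TPM or more everywhere and summed to between 43.5 and 157 TPM. The erythroid list ranged from 0.878 to 11.9 TPM and the white blood cell list from 0.999 to 6.18 TPM, with Mir223 at 0. Only 2 of the 4 erythroid names and 3 of the 5 white blood cell names matched a row. Mir142, at 1.85 TPM on average, and Mir486, listed at 0, are in the table under names not on the lists and were left out. Neural miRNAs ranged from 37.6 TPM in library 2 to 3082 TPM in library 3, of which Mir9-3 alone gave 35.2 and 2860 TPM, and 1 of 9 genes was at 1 TPM or more everywhere. In library 3 Mir27b, at 230 TPM, lay between its levels in libraries 1 and 2. Tbx18 itself was not analysed here.

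The miRNA genes most like each member over the 4 libraries were sought by the root mean square difference of log2 shares, each gene centred on its own mean, among 212 others. For Mir23b they were Mir140, known from cartilage, at 0.17 log2 units, Mir362 at 0.17 and Mir181b-2 at 0.18. For Mir27b they were Mir362 at 0.17, Mir107 at 0.21 and Mir181b-2 at 0.22. Mir23b and Mir27b were each the 4th most alike to the other, at 0.26, so the neighbours of chromosome 13 had closely similar profiles. A median gene differed from Mir23b by 1.00 and from Mir27b by 0.95.

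The chromosome 8 genes had other neighbours in profile. Those of Mir27a were Mir130b at 0.06, Mir493 at 0.10 and Mir744 at 0.11, and those of Mir23a were Mir154 at 0.10, Mir139 at 0.19 and Mir149 at 0.19. Mir23a was the 82nd most alike to Mir27a, and Mir27a the 45th to Mir23a, at 0.42. Across the clusters, Mir23b was 149th for Mir23a and Mir27b was 157th for Mir27a, at 0.77 and 0.85. Over all 4 libraries each member was thus nearer in profile to the hairpin beside it than to its paralog, an order that depended on library 4. In libraries 1 to 3 the log2 ratio with 1 TPM added spanned 2.17 to 2.39 for Mir23b to Mir23a. It spanned 3.14 to 3.81 for Mir27b to Mir27a, -1.51 to -0.86 for Mir23b to Mir27b and -0.54 to 0.54 for Mir23a to Mir27a. In those libraries the paralog ratios did not, as a set, vary more than the neighbour ratios. With 4 libraries these orders are descriptions.

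Other rows of the table lie near the clusters. The lncRNA Gm16907, which ends 3336 bases before Mir23b, was listed at 0 in all libraries. On chromosome 8, Mir181d and Mir181c lie 29730 and 29556 bases before Mir23a. Mir181d stood at 241, 416, 434 and 45.7 TPM and Mir181c at 3.78, 7.38, 10.4 and 1.46 TPM in libraries 1 to 4, so the first was above every chromosome 8 member and the second below Mir23a and Mir27a in all 4.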

How the data were processed

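The authors deposited TPM values, with genes as rows, by Entrez ID, and the 4 libraries as columns. Per the labels' protocols, sorted cells gave total RNA and small RNA libraries, and the series' design text gives single reads of 75 bp. Per the submitters' processing notes mm10 (GRCm38) is the build and limma a tool, with no role stated for either. The annotation, counter, aligner and handling of reads with several matches were not given in the sources used here. Of 2976 rows, 2541 matched RefSeq GRCm38.p6 by gene ID. For every nonzero miRNA gene, the product of TPM and hairpin length came out as a whole number of equal steps in each library (100% of values within 0.01). The step was the smallest nonzero product, and 1 step was taken as 1 read. That step and the test were checked on simulated data.

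Ratios were log2 of TPM plus 1, taken within a library, with an exact two-sided sign-flip test and Benjamini-Hochberg adjustment over 8 ratios. Ratios to a Mir24 gene were not computed. Named genes were the members, overlapping rows, genes sharing a 3p seed, marker lists and the 3 genes most alike in profile. Genes outside that rule (Mir374b, Mir181c, Mir181d, Gm16907) were chosen after their values were seen, as were the comparisons of library 4 with the rest and of gene pairs. Members and lists were chosen with earlier results of these data known. Rows are hairpins, so arms could not be separated. Small RNA ligation preferences differ between miRNAs. Python 3.11.15, numpy 2.4.6, pandas 2.3.3, scipy 1.17.1 and matplotlib 3.10.9 were used.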

Additional observations from a re-analysis of the deposited data

Results flagged for a closer look

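In 21 measures of the clusters, a library was sought that stood apart from the other 3, with Dixon's ratio of a gap to the whole range and its 95% critical value. Chance alone sets 1 value apart in about 1 of 20 such groups, and the measures share genes and libraries. In 5 of the 21 a library passed. Library 4 was the lowest for the log2 ratio of Mir23b to Mir23a, at 0.52 (Dixon's ratio 0.883), and for that of the summed clusters, at 1.17 (0.835). It was also the lowest for the summed TPM of the chromosome 13 genes, at 29.3 TPM (0.852), and of all 6 genes, at 41.9 TPM (0.859). Sums in TPM also carry the lower total of the whole table in library 4. Library 2 was the lowest for the log2 ratio of Mir23b to Mir27b, at -1.51 (0.854). Mir27b itself, at 19.7 TPM in library 4, came close to the critical value without passing it (0.817).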

How the results depend on the processing

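No paired analysis was possible because all 4 libraries belong to 1 group. The 3 ratios between chromosome 13 and chromosome 8, that of Mir23b to Mir27b and the 3 to marker groups kept their direction with 0.1 or 10 TPM added, in reads not divided by length, with the Mir3074 rows added (all at 0), and with each library left out. Without 1 library the mean log2 ratio ranged from 1.68 to 2.30 for Mir23b to Mir23a, from 2.74 to 3.50 for Mir27b to Mir27a and from 2.35 to 3.02 for the sums, the highest value in each case without library 4. The ratio of Mir23a to Mir27a reversed, to -0.10 in reads and to -0.043 without library 3, within a range of -0.043 to 0.32. No adjusted p could pass 0.05 under any setting, so this says nothing of significance. At 10 TPM in all libraries only 1 member, Mir27b, was detected, as were 17.6% of miRNA genes. That filter left no value for ratios of single genes. The coefficient of variation without library 4 was 12.7% for Mir23a, 31.2% for Mir27a, 19.6% for Mir23b and 9.58% for Mir27b. Depth limits library 4 most, where the 4 genes rest on 52 to 155 reads each.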

Other observations

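The spread of a log2 ratio between libraries was set beside that of other gene pairs, for the 213 miRNA genes at 1 TPM or more everywhere. Over 237 pairs of neighbours within 10 kb on 1 strand, the median SD of the log2 ratio was 0.63, and over all 22578 pairs of these genes it was 0.91. Mir23b and Mir27b had an SD of 0.30, with 41 of the 237 pairs tighter, and Mir23a and Mir27a one of 0.49, with 90 tighter. Over 110 pairs of genes with 1 number and different letters, such as Mir23a and Mir23b, the median was 0.75. Many of these pairs set let-7 genes against each other. The number rule also paired Mir7b with let-7 genes, which are of another family. The Mir23 pair stood at 0.89 and the Mir27 pair at 0.98, with 63 and 69 of the 110 tighter. Both values lay somewhat above the median of that mixed set, which is not a fair sample of lettered relatives. Library 4 widened both. With 1 TPM added, the paralog log2 ratios spanned 2.17 to 2.39 and 3.14 to 3.81 in libraries 1 to 3, and were 0.52 and 1.55 in library 4. For the neighbour pairs Mir23b and Mir27b, and Mir23a and Mir27a, library 4 lay inside the range of the others. Pairs share genes and libraries, so these values are descriptions.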
